A study of Mus musculus with 12 samples.

Results

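The Hox cluster genes are the homeobox genes of the HoxA, HoxB, HoxC and HoxD clusters, and every gene with an array symbol of the form Hoxa, Hoxb, Hoxc or Hoxd and a number was taken as a member. This gave 36 of the 18322 genes with a symbol, 10 in HoxA, 10 in HoxB, 7 in HoxC and 9 in HoxD. Each member was read from the probe with the highest mean raw signal, and 11 members had several probes among the 50 that carry a Hox symbol. The rule reads the symbols alone, but the family was chosen with earlier results of these data known.

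Hox genes encode DNA-binding transcription factors that give cells of the embryo their position along the body axis. Their order within a cluster mirrors the order in which they are switched on, with low-numbered genes used early and toward the head and high-numbered genes late and toward the tail, in limb tips and in the urogenital tract. In embryonic stem cells the clusters are known as a standard target of Polycomb repression, with most members near silent until retinoic acid, Wnt or Fgf signals and Cdx factors open them.

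Expression was measured on 12 spotted arrays with 2 dyes. IB10 cells, an E14 line of mouse embryonic stem cells, were infected with a lentiviral pLKO-puro vector that expressed shKdm5c#1, shKdm5c#2 or a hairpin without a target (control-sh), and puromycin was given from 24 h after the last infection. All 3 lines therefore carried a vector and had passed selection, while the IB10 reference was untreated. Surviving colonies of each infection were pooled, so each hairpin is represented by 1 polyclonal line, and 4 independent cultures per line (A to D) were grown on gelatin in serum with LIF. Total RNA of each culture shared its array with RNA of untreated IB10 cells, a common reference treated as 1 preparation, with the sample in Cy3 for cultures A and C and in Cy5 for B and D. Values are log2 ratios of sample over IB10 reference, or differences of these ratios between lines, and "called" means a limma p-value adjusted by Benjamini-Hochberg over all 18322 genes under 0.05. Errors reflect how cultures of 1 line per hairpin varied, so an effect of the hairpin and any other difference between the lines cannot be told apart, and the spread of the reference preparation is not in the error.

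On each array 84.4 to 96.4 percent of the gene spots passed background in the channel of the sample, meaning a median signal over the local background median by more than 2 background SDs. The arrays scattered about the fit by 0.046 to 0.084 log2, most in culture D of shKdm5c#2, and the median standard error was 0.028 for a ratio over IB10 and 0.040 for a difference between lines. Kdm5c, the targeted H3K4 demethylase, ranged over IB10 from -0.01 to 0.09 in the control-sh cultures, from -0.81 to -0.42 in shKdm5c#1 and from -0.75 to -0.62 in shKdm5c#2. Its difference from control-sh was -0.64 and -0.70 (limma adjusted p = 1.75e-07 and 3.16e-08), and control-sh itself stood at 0.02 over IB10 (adjusted p = 0.767). The 10 markers of embryonic stem cells, Pou5f1, Sox2 and Nanog among them, were above background on all 12 sample channels.

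Hox spots were dim in all lines. Of the 36 members, 23 had a mean raw signal at or under 102, the 25th percentile of all genes, and 3 lay above the median of 234 arbitrary units. Such signals depend on the probe and do not rank the genes by RNA level. Even so, 25 members stood above background on all 12 sample channels, 8 of 10 in HoxA, 8 of 10 in HoxB, 5 of 7 in HoxC and 4 of 9 in HoxD. The poorest were Hoxc8 and Hoxd11, with 6 of 12 channels each, and none was below background on every array of a line. Hoxc8 passed on 2 channels of each line, while Hoxd11 passed on 4 of control-sh but 1 of each knockdown line. With an offset of 50 units added in the background correction, a difference of a dim spot is pulled toward 0, so the fold changes below understate any true change. Across the members, the median ratio over IB10 was 0.03 in control-sh, 0.02 with shKdm5c#1 and 0.0001 with shKdm5c#2, where all genes gave -0.0007, -0.0045 and -0.0058.

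**Figure D1:**
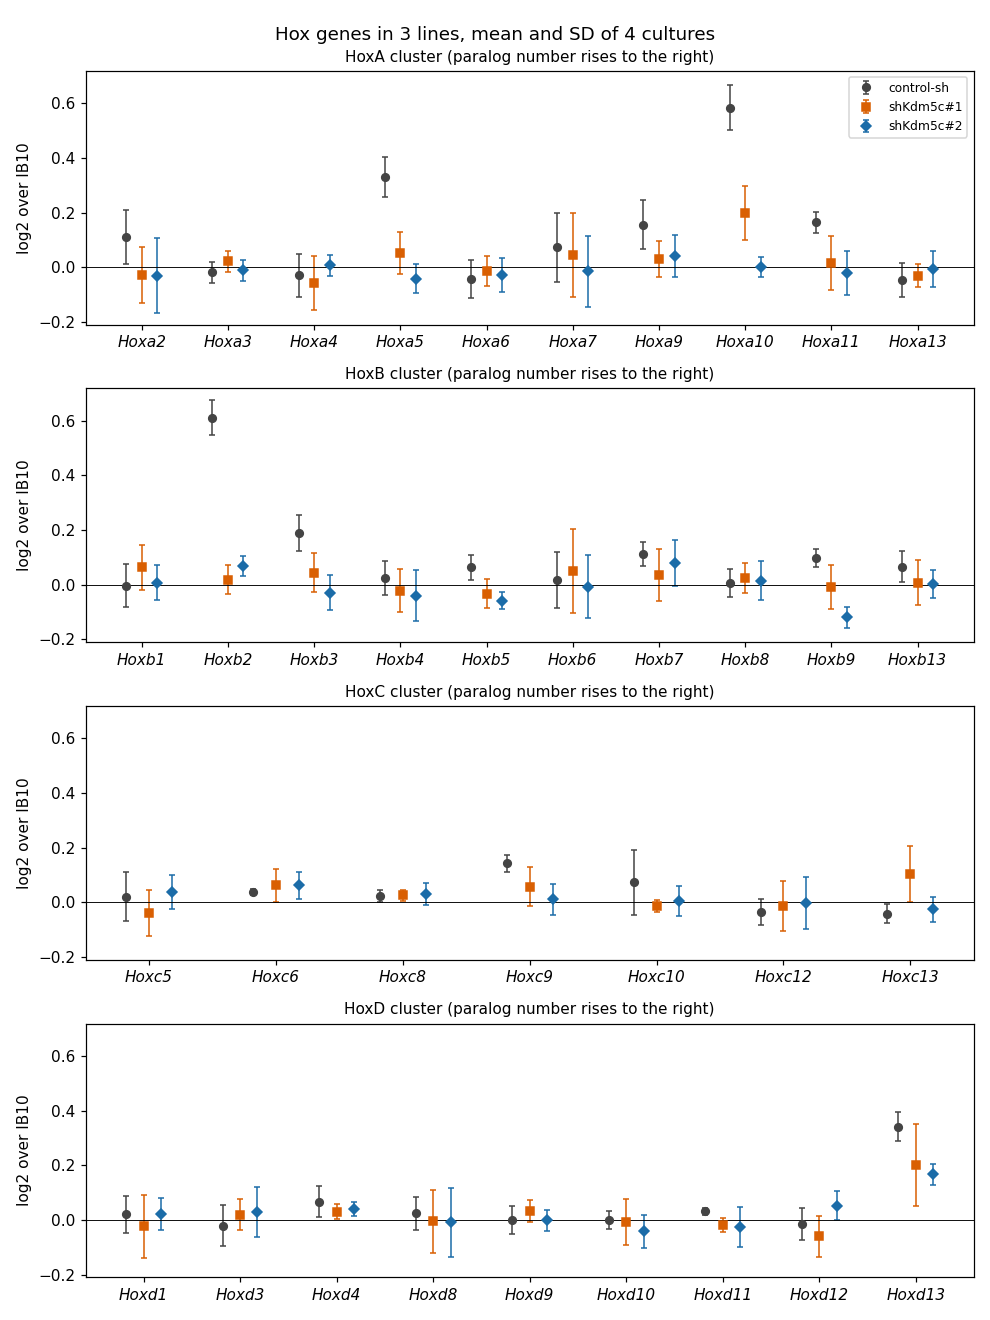
Mean log2 ratio over the IB10 reference of each of the 36 Hox genes (points) with the SD of 4 cultures (bars), in 1 panel per cluster with paralog number rising to the right, for control-sh (circles), shKdm5c#1 (squares) and shKdm5c#2 (diamonds). Control-sh stands alone at 0.61 for Hoxb2 and 0.58 for Hoxa10, Hoxd13 lies above 0 in all 3 lines, and most other points lie within 0.1 of 0.

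The line with the control hairpin, not a knockdown line, differed most often from untreated IB10 cells at these genes. In control-sh, 10 of 36 members were called higher than IB10 and 0 lower, where 12.6 percent of all genes were called higher and 26.3 percent in either direction. At an unadjusted limma p under 0.05, 15 members were higher and 0 lower. Those called were Hoxb2, Hoxa10, Hoxd13, Hoxa5, Hoxb3, Hoxa11, Hoxa9, Hoxc9, Hoxb7 and Hoxb9, in order of their ratio. The other 26 members lay between -0.05 (Hoxa13) and 0.11 (Hoxa2, adjusted p = 0.0546). In shKdm5c#1, 3 members were called over IB10, all higher (Hoxa10, Hoxd13 and Hoxc13), where 27 percent of all genes were called. In shKdm5c#2, Hoxd13 was called higher and Hoxb9 lower, with a background of 26.2 percent. The share of Hox genes called in either direction was thus near that of all genes in control-sh and below it in both knockdown lines.

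Hoxb2, which patterns the hindbrain and its facial motor neurons, gave the highest ratio of any member. Cultures A to D read 0.64, 0.69, 0.57 and 0.55 in control-sh, 0.04, 0.06, 0.04 and -0.06 with shKdm5c#1, and 0.07, 0.06, 0.11 and 0.02 with shKdm5c#2. All 4 control-sh cultures lay far above the 8 knockdown cultures, which lay close to IB10. Before normalization its spot stood 60.6 to 78.0 units over local background in control-sh, 22.3 to 38.7 with shKdm5c#1, 19.5 to 36.0 with shKdm5c#2 and 17.6 to 32.5 in the reference channel of the 12 arrays. The separation is therefore visible in the raw signal, without correction for dye. Control-sh was 1.53-fold over IB10 (log2 0.61, standard error 0.03, limma adjusted p = 9.14e-11). Against control-sh, shKdm5c#1 was 1.51-fold lower (log2 -0.59, standard error 0.04, adjusted p = 2.59e-08) and shKdm5c#2 1.46-fold lower (log2 -0.54, standard error 0.04, adjusted p = 2.92e-08).

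Hoxa10, a gene of the lumbar spine and the uterus, read 0.60, 0.57, 0.48 and 0.68 in control-sh, 0.23, 0.05, 0.28 and 0.23 with shKdm5c#1, and -0.01, -0.04, 0.04 and 0.02 with shKdm5c#2. The 3 lines formed separate ranges, with control-sh highest, shKdm5c#1 between and shKdm5c#2 at IB10. Culture B of shKdm5c#1, at 0.05, was only just above the highest shKdm5c#2 culture, at 0.04. Control-sh was higher than IB10 (log2 0.58, standard error 0.04, adjusted p = 3.26e-09), and shKdm5c#1 was also called, at 0.20 (adjusted p = 0.000415). The differences from control-sh were -0.38 with shKdm5c#1 and -0.58 with shKdm5c#2 (standard error 0.05 each, limma adjusted p = 3.67e-05 and 2.46e-07). Raw signal over background was 77.6 to 116 units in control-sh, 45.1 to 84.6 with shKdm5c#1, 31.9 to 57.1 with shKdm5c#2 and 36.6 to 87.6 in the reference, so unnormalized signals of control-sh and shKdm5c#1 overlapped.

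Hoxa5, which acts in the cervical spine and the lung, read 0.28, 0.29, 0.31 and 0.44 in control-sh, 0.01, 0.14, -0.03 and 0.09 with shKdm5c#1, and -0.05, -0.10, -0.05 and 0.03 with shKdm5c#2. Control-sh again lay above all knockdown cultures, which surrounded the IB10 level. Its ratio in control-sh was 0.33 (standard error 0.03, adjusted p = 2.4e-07), and the differences were -0.28 with shKdm5c#1 and -0.37 with shKdm5c#2 (adjusted p = 0.000112 and 3.71e-06). This spot was above background on 11 of 12 sample channels.

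Hoxb3, a hindbrain and pharyngeal gene, read 0.17, 0.25, 0.11 and 0.24 in control-sh, 0.09, 0.06, -0.06 and 0.08 with shKdm5c#1, and 0.03, -0.12, -0.01 and -0.01 with shKdm5c#2. Hoxa11, needed for the forearm and the kidney, read 0.12, 0.21, 0.14 and 0.18 in control-sh, 0.11, -0.02, 0.08 and -0.11 with shKdm5c#1, and -0.09, 0.07, 0.03 and -0.09 with shKdm5c#2. In both genes the lowest control-sh culture was only just above the highest knockdown culture. Control-sh was called over IB10 for Hoxb3 (0.19, adjusted p = 0.000234) and Hoxa11 (0.16, adjusted p = 0.00203). For Hoxb3 the differences were -0.15 and -0.22 (limma adjusted p = 0.0308 and 0.00171) with shKdm5c#1 and shKdm5c#2. For Hoxa11 they were -0.15 and -0.18 (limma adjusted p = 0.0472 and 0.0123), and its spot was above background on 10 of 12 sample channels.

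These 5 genes, Hoxa5, Hoxa10, Hoxa11, Hoxb2 and Hoxb3, were called lower in both knockdown lines than in control-sh and higher in control-sh than in IB10, where 3.51 percent of all genes met all 3 conditions and 5.07 percent were lower in both knockdown lines. The same 5 members had all 4 control-sh cultures above all 8 knockdown cultures, against 3.91 percent of all genes, and 0 members had the opposite order, against 3.34 percent. In 4 of them, all but Hoxa10, neither knockdown line was called against IB10, against 1.02 percent of all genes. The differences of the 2 knockdown lines share the control-sh cultures, so they are not independent of each other. For Hoxb2 and Hoxa10 all 3 calls held in 10 alternative settings and in 12 fits that each left out a culture, but Hoxa5 lost its shKdm5c#1 call under median centring and in the Cy5 arrays alone (limma adjusted p up to 0.0977). The calls of Hoxb3 and Hoxa11 with shKdm5c#1 also ended when single cultures were left out, among them culture A, B or D of control-sh and B or D of shKdm5c#1, which left Hoxa5, Hoxa10 and Hoxb2. Of the 10 settings, the shKdm5c#1 call held in 6 for Hoxb3 and 4 for Hoxa11, and the shKdm5c#2 call in 8 and 7. Under median centring, and in the Cy5 arrays alone, only Hoxa10 and Hoxb2 kept all 3 calls. All 5 spots lay in the dimmest 25 percent of genes. With an offset of 16 in place of 50, control-sh over IB10 read 0.95 for Hoxb2, 0.81 for Hoxa10, 0.59 for Hoxa5, 0.31 for Hoxa11 and 0.29 for Hoxb3, which for all but Hoxa10 is over 1.5 times the value with 50, and all 5 stayed called.

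**Figure D2:**
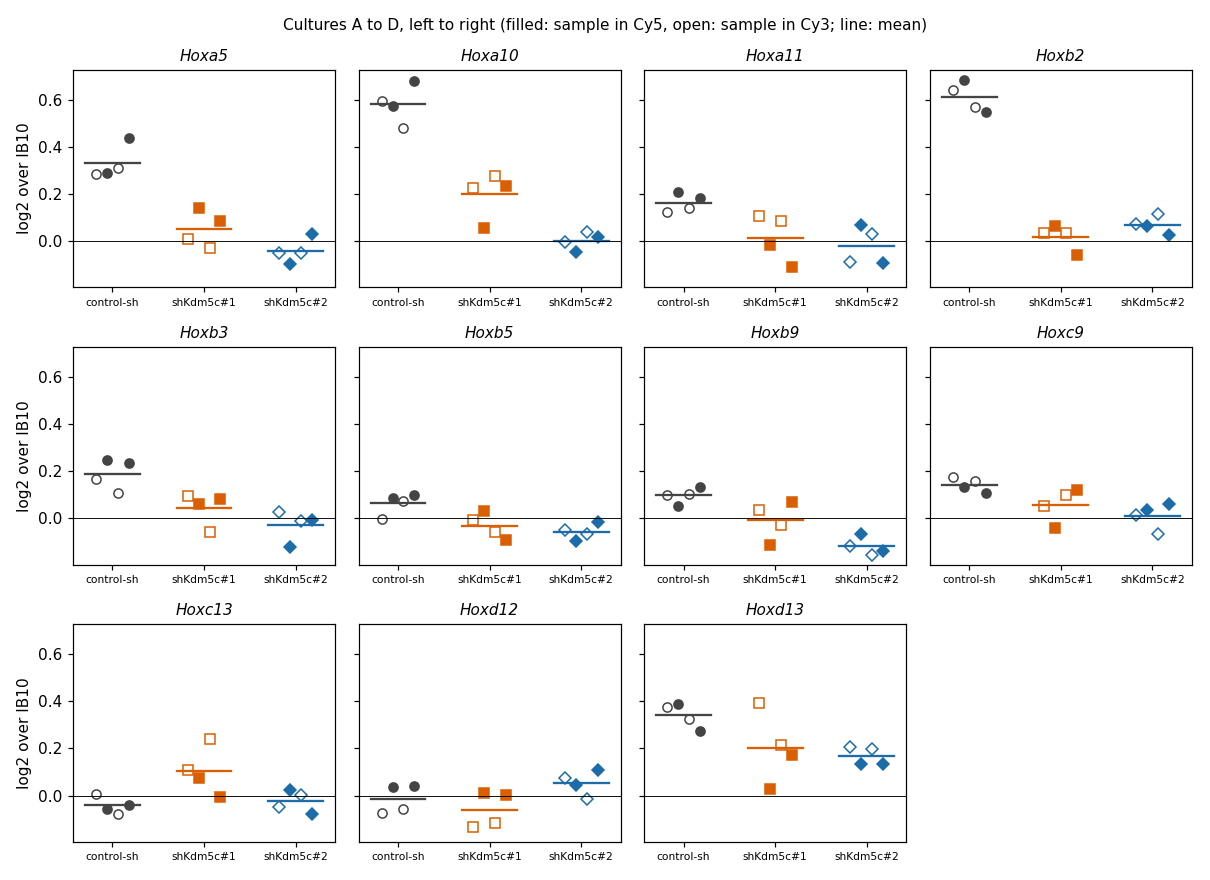
Log2 ratio over the IB10 reference in each culture, A to D from left to right within a line, for the 11 Hox genes called in at least 1 difference between lines; filled symbols have the sample in Cy5, open symbols in Cy3, and the line is the mean. Control-sh lies above both knockdown lines for Hoxa5, Hoxa10, Hoxa11, Hoxb2 and Hoxb3, and Hoxd13 lies above 0 in all 12 cultures.

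**Figure D3:**
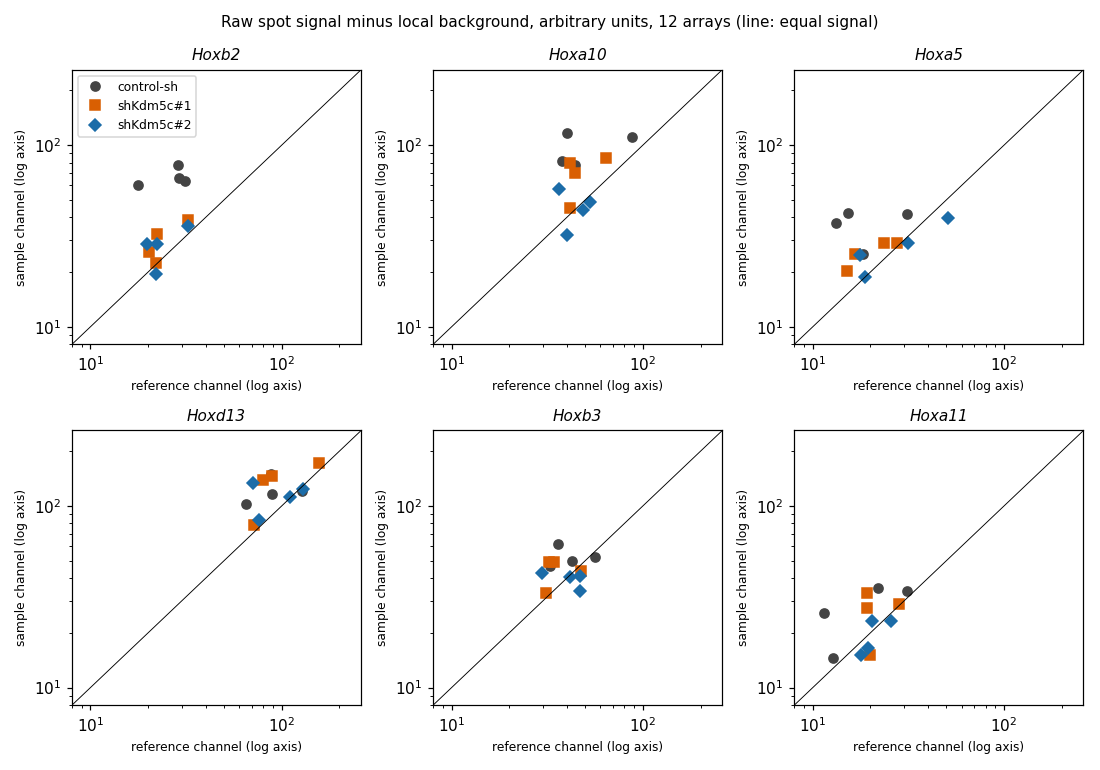
Raw spot signal minus local background in arbitrary units, sample channel against reference channel of the same array on log axes, for 6 Hox genes on 12 arrays, with the line of equal signal. The control-sh points of Hoxb2 lie at 60.6 to 78.0 units in the sample channel, above all others at a like reference signal; signals were not corrected for dye.

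Hoxd13, which shapes the digits and is mutated in mouse and human limb malformations, was the 1 member called higher than IB10 in all 3 lines, a pattern met by 2.2 percent of all genes. Its cultures read 0.38, 0.39, 0.32 and 0.27 in control-sh, 0.39, 0.03, 0.21 and 0.17 with shKdm5c#1, and 0.21, 0.13, 0.20 and 0.13 with shKdm5c#2. All 12 were above 0, culture B of shKdm5c#1 only just, and the ranges of control-sh and shKdm5c#1 overlapped. The ratios were 0.34, 0.20 and 0.17 (limma adjusted p = 1.73e-06, 0.000356 and 0.00167), and shKdm5c#2 was lower than control-sh (log2 -0.17, adjusted p = 0.0179), while the shKdm5c#1 difference was not called (-0.14, adjusted p = 0.0646). A second, dimmer Hoxd13 probe, MMAB008404, above background on all 12 sample channels, read 0.02, 0.01 and 0.03 over IB10 in the 3 lines (adjusted p over all probes 0.714, 0.857 and 0.494), so the calls rest on probe MMAB035478.

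The 250 bases before the RefSeq start sites of HoxA and HoxD genes are shown for the 4 members of these clusters called both over IB10 and in a difference between lines, and for 1 uncalled neighbour, Hoxa7, to set genes that moved beside one that did not pass. Sequences are from RefSeq on GRCm38.p6, written along the gene, and capitals mark CG dinucleotides, the sites of DNA methylation that CpG-rich promoters hold in number. Hoxa5 is from chr6:52204588-52204837, Hoxa10 from chr6:52240855-52241104 for its upstream start and from chr6:52234940-52235189 for its downstream start, Hoxa11 from chr6:52245811-52246060 and Hoxa7 from chr6:52218574-52218823, all on the minus strand. Hoxd13 is from chr2:74667975-74668224 on the plus strand.
Hoxa5: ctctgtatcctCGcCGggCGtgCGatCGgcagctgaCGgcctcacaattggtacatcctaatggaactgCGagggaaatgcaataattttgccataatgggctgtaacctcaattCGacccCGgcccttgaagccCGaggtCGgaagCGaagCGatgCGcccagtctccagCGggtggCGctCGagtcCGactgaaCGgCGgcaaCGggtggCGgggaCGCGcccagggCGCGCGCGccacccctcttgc
Hoxa10, upstream start: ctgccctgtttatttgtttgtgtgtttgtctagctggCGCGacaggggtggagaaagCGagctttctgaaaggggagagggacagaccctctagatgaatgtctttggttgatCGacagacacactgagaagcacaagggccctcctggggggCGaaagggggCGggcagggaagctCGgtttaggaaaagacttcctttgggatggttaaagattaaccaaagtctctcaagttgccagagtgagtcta
Hoxa10, downstream start: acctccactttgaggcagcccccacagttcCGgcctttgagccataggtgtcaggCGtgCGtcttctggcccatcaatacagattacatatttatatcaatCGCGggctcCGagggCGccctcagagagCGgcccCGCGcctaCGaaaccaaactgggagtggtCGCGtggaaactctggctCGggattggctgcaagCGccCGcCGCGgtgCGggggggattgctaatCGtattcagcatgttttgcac
Hoxa11: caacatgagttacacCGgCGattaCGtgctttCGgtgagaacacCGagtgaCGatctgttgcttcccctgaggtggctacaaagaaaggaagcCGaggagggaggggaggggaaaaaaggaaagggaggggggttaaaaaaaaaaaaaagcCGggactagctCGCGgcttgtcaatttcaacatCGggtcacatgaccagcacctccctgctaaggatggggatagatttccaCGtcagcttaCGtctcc
Hoxd13: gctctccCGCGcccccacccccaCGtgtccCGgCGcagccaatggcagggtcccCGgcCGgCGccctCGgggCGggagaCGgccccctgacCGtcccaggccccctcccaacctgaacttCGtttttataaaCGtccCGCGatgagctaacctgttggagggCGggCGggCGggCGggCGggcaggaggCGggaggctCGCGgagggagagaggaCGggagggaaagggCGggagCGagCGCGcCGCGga
Hoxa7: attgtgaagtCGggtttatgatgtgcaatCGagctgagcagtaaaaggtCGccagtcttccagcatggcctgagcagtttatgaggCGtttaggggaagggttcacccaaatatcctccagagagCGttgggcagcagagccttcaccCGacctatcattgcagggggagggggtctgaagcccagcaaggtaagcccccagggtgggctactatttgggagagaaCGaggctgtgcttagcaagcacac
They hold 28 CG for Hoxa5, 7 and 20 for the upstream and downstream starts of Hoxa10, 13 for Hoxa11, 31 for Hoxd13 and 7 for Hoxa7. Uncalled members were also rich in CG, with 24 in Hoxa6 and 35 in Hoxa13, and the called Hoxa9 had 3. The 23 promoters of 21 matched members had a median of 13 CG against 6 over all 32851 promoters, and 8 of the 23 held 20 or more, against 17.9 percent of all. The letters TATAAA, searched on both strands, occurred in 4 of the 23 (Hoxd13, Hoxd4, Hoxb8 and the downstream start of Hoxa10) and in 12.4 percent of all. AGGTCA, the half-site of retinoic acid receptors, occurred in 5 and in 14.0 percent of all, and TTTATG, a Cdx-type motif, in 5 and in 10.8 percent of all, counted on both strands with overlaps between motifs allowed. Hoxa7 holds TTTATG and Hoxa5, Hoxa10, Hoxa11 and Hoxd13 do not. These counts describe the sequences and were chosen after the expression values were seen.

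Against control-sh, 5 members were lower with shKdm5c#1 and 1 higher, where 18.6 percent of all genes were called, 9.62 percent lower and 8.99 percent higher. With shKdm5c#2, 9 were lower and 0 higher, where 22.2 percent of all genes were called, 12.3 percent lower and 9.94 percent higher, and at an unadjusted limma p under 0.05 the members gave 11 lower and 0 higher. The median difference of the members was -0.04 with shKdm5c#1 and -0.03 with shKdm5c#2, against -0.0018 and -0.0042 over all genes. The 27 members not called with shKdm5c#2 ranged from -0.14 (Hoxa2) to 0.07 (Hoxd12), and the 30 with shKdm5c#1 from -0.14 (Hoxa2) to 0.07 (Hoxb1).

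Besides the 5 genes above and Hoxd13, shKdm5c#2 was called lower than control-sh at Hoxb9, Hoxc9 and Hoxb5. Hoxb9, of the thoracic skeleton, read 0.10, 0.05, 0.10 and 0.13 in control-sh, 0.04, -0.11, -0.03 and 0.07 with shKdm5c#1, and -0.12, -0.07, -0.15 and -0.14 with shKdm5c#2. Every shKdm5c#2 culture was below IB10 and every control-sh culture above it, with shKdm5c#1 overlapping both. The difference was -0.22 (limma adjusted p = 0.000817), made up of control-sh at 0.10 over IB10 (adjusted p = 0.0176) and shKdm5c#2 at -0.12 (adjusted p = 0.00495). The dimmer Hoxb9 probe, above background on 9 of 12 channels, gave a difference of -0.17 (limma adjusted p over all probes 0.00608). Over IB10 it was not called with shKdm5c#2 (-0.04, adjusted p = 0.344), where culture B read 0.05. With shKdm5c#1 it was called higher than IB10 (0.10, adjusted p = 0.014), unlike the brighter probe. The place of every shKdm5c#2 culture below IB10 thus rests on the brighter probe.

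Hoxc9, which sets the thoracic identity of motor neurons, read 0.18, 0.13, 0.16 and 0.11 in control-sh, 0.05, -0.04, 0.10 and 0.12 with shKdm5c#1, and 0.01, 0.04, -0.07 and 0.06 with shKdm5c#2. Hoxb5, of the shoulder girdle and the enteric neural crest, read -0.0044, 0.09, 0.07 and 0.10 in control-sh, -0.01, 0.03, -0.06 and -0.09 with shKdm5c#1, and -0.05, -0.10, -0.07 and -0.02 with shKdm5c#2. For both genes all control-sh cultures lay above all of shKdm5c#2, while shKdm5c#1 overlapped control-sh. The differences with shKdm5c#2 were -0.13 for Hoxc9 and -0.12 for Hoxb5 (limma adjusted p = 0.0273 and 0.0244). Leaving out single cultures ended the Hoxc9 call in 4 of 12 fits and the Hoxb5 call in 5 of 12.

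Between the knockdown lines, shKdm5c#1 was higher than shKdm5c#2 at 2 members and lower at 1, where 18.5 percent of all genes were called (10.1 percent higher and 8.49 percent lower), and the median difference of the members was 0.01 against 0.002 over all genes. Hoxa10 was 0.20 higher (95 percent interval 0.09 to 0.30, limma adjusted p = 0.00976). Hoxc13, a hair and nail gene, read 0.01, -0.06, -0.08 and -0.04 in control-sh, 0.11, 0.08, 0.24 and -0.0042 with shKdm5c#1, and -0.05, 0.02, 0.0038 and -0.08 with shKdm5c#2, so that 3 of the 4 shKdm5c#1 cultures lay above all others. It was the 1 member called higher with shKdm5c#1 than in control-sh (0.15, limma adjusted p = 0.0239), and was 0.13 higher than with shKdm5c#2 (adjusted p = 0.0446). Its difference from control-sh was not called without culture C of control-sh or B or C of shKdm5c#1, and that between the knockdown lines was called in only 3 of the 12 fits that each left out a culture. Hoxd12, a limb gene beside Hoxd13, read -0.07, 0.03, -0.06 and 0.04 in control-sh, -0.13, 0.01, -0.12 and 0.0012 with shKdm5c#1, and 0.08, 0.04, -0.02 and 0.11 with shKdm5c#2. The ranges of the knockdown lines overlapped, with the low shKdm5c#1 values in the cultures labelled with Cy3, and the difference was -0.11 (limma adjusted p = 0.0253), a call that held in 9 of 12 such fits.

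Members called in control-sh over IB10 were 4 of 10 in HoxA, 4 of 10 in HoxB, 1 of 7 in HoxC and 1 of 9 in HoxD. All were higher, where 12.6 percent of all genes were called higher. Some called genes were neighbours, namely Hoxa9, Hoxa10 and Hoxa11 in HoxA and Hoxb2 and Hoxb3 in HoxB. Uncalled genes lay between others. Hoxa6 and Hoxa7, between Hoxa5 and Hoxa9, lay at -0.04 and 0.07, and Hoxb4 to Hoxb6, between Hoxb3 and Hoxb7, at 0.02 to 0.06. The mean over the 10 HoxA members was 0.10 to 0.17 in the 4 control-sh cultures, -0.01 to 0.04 with shKdm5c#1 and -0.03 to 0.01 with shKdm5c#2, and for HoxB 0.08 to 0.15, -0.02 to 0.05 and -0.05 to 0.01. HoxC gave 0.01 to 0.05, 0.01 to 0.04 and -0.01 to 0.05, and HoxD 0.04 to 0.06, -0.02 to 0.05 and -0.0031 to 0.05. By these means control-sh stood apart from both knockdown lines in HoxA and HoxB, while the ranges met or overlapped in HoxC and HoxD. By the median over the members the lines overlapped in HoxA and HoxB too: the lowest control-sh culture gave 0.021 in HoxA and 0.063 in HoxB, and the highest shKdm5c#1 culture 0.028 and 0.065. By position, 2 of 10 members of paralog groups 1 to 4, 2 of 11 of groups 5 to 8 and 6 of 15 of groups 9 to 13 were called over IB10 in control-sh, against the same 12.6 percent of all genes. No test of clusters or positions against each other was made. Of other transcripts within the clusters, 5730596B20Rik in HoxA and Hoxb3os, annotated as a noncoding RNA in HoxB beside Hoxb3, read -0.01 each in control-sh over IB10 (adjusted p = 0.864 and 0.919). They were looked up after the members' values were seen.

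Probes of 1 gene were called differently in 4 of the 11 members with several probes in control-sh over IB10, namely Hoxa3, Hoxa4, Hoxb8 and Hoxd13. For shKdm5c#2 minus control-sh this held for 5, namely Hoxa3, Hoxa4, Hoxb3, Hoxb8 and Hoxd13, and for shKdm5c#1 minus control-sh for 2, Hoxb3 and Hoxb8. Hoxb8, whose 2 probes are nearly as bright as each other (mean raw signal 70.2 and 66.9), stood at 0.01 by the brighter MMAB026940 but at 0.32 by MMAB013788 (adjusted p over all probes 1.79e-07). By MMAB013788 cultures read 0.25, 0.36, 0.29 and 0.40 in control-sh, 0.16, 0.13, 0.14 and 0.05 with shKdm5c#1, and 0.08, 0.13, 0.03 and 0.05 with shKdm5c#2. By that probe control-sh again lay above all 8 knockdown cultures, with differences of -0.20 and -0.25 (limma adjusted p = 0.00193 and 0.000192), an order that the brighter probe did not show. Dimmer probes of Hoxa4 and Hoxa3 gave 0.13 and 0.16 in control-sh over IB10 (adjusted p = 0.00146 and 0.00214), where their brightest gave -0.03 and -0.02, and the Hoxa3 probe was above background on 6 of 12 channels. With shKdm5c#2 these 2 probes were called lower than in control-sh (-0.13 and -0.17, limma adjusted p = 0.0212 and 0.0168). Their differences with shKdm5c#1 were not called, nor were the remaining Hoxa3 probes in these contrasts. The dimmer Hoxb3 probe gave 0.09 (adjusted p = 0.0113), with differences of -0.08 and -0.09 that were not called (adjusted p = 0.144 and 0.0806). Hoxb2, Hoxa10, Hoxa5 and Hoxa11 have 1 probe each, so their values have no second probe to set beside them.

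Lists of related genes are set against the shares of all genes called, which were 12.6 percent higher and 13.7 percent lower in control-sh than in IB10, 8.99 and 9.62 percent with shKdm5c#1 against control-sh, and 9.94 and 12.3 percent with shKdm5c#2 against control-sh. Of 8 TALE homeobox cofactors of the Meis, Pbx and Pknox families, which bind DNA with Hox proteins, Meis2 and Meis1 were called higher than IB10 in control-sh (0.22 and 0.13, adjusted p = 1.16e-05 and 0.00416) and 0 lower, with a list median of -0.0018. These 2 of 8 are close to the 26.3 percent of all genes called in either direction. Both were also lower with shKdm5c#2 than in control-sh (-0.27 and -0.20, adjusted p = 5.84e-05 and 0.00332), where 22.2 percent of all genes were called, and 0 of 8 were called with shKdm5c#1 against control-sh. Cultures of shKdm5c#1 held Meis2 at 0.10 to 0.36, overlapping the 0.14 to 0.28 of control-sh.

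Of 18 upstream regulators, which induce or modify Hox expression, 2 were called higher and 5 lower in control-sh than in IB10, with a median of 0.001, where 12.6 percent of all genes were higher and 13.7 percent lower. T, the brachyury factor of the primitive streak, read -1.41, Wnt3, a signal of that structure, -0.73, and Cyp26a1, which degrades retinoic acid, -0.58 (adjusted p = 3.15e-12, 1.29e-11 and 4.84e-08). The 2 called higher, named after their values were seen, were Cdx2, a direct activator of Hox genes in the posterior embryo, at 0.23 and Aldh1a2, which makes retinoic acid, at 0.10 (adjusted p = 1.05e-05 and 0.00332). Cdx2 was also called over IB10 with shKdm5c#1 (0.46, adjusted p = 5.67e-09) and shKdm5c#2 (0.30, adjusted p = 4.17e-07), and its difference of shKdm5c#1 from control-sh was 0.23 (adjusted p = 0.000434). Against control-sh, 5 of the 18 were higher and 1 lower in each knockdown line. T was higher than in control-sh by 1.37 with shKdm5c#1 and by 2.07 with shKdm5c#2 (limma adjusted p = 8.59e-10 and 1.69e-12). Over IB10, T read -0.04 with shKdm5c#1 and 0.65 with shKdm5c#2, beside the -1.41 of control-sh. The line with the highest mean over the Hox genes thus had the lowest T.

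Genes that flank the clusters were described to set the Hox values beside their surroundings. Of 19, 2 were higher and 5 lower in control-sh than in IB10, with a median of -0.01, against the same 12.6 and 13.7 percent of all genes. Skap2, an adaptor protein gene next to HoxA, read 0.32 to 0.52 in control-sh, -0.04 to 0.19 with shKdm5c#1 and -0.40 to -0.18 with shKdm5c#2, in 3 separate ranges. Its ratio in control-sh was 0.44 (adjusted p = 5.33e-09), and the differences from control-sh were -0.36 and -0.70 (limma adjusted p = 5.64e-06 and 1.3e-09). Calcoco2, near HoxB, was lower in control-sh than in IB10 (-0.27, limma adjusted p = 1.22e-05). It lay lower still with shKdm5c#2, at -0.86 to -0.74, against -0.37 to -0.20 in control-sh and -0.10 to 0.27 with shKdm5c#1.

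Of 37 homeobox genes outside the clusters, 6 were higher and 2 lower in control-sh than in IB10, with a median of 0.003 against 0.03 for Hox genes. The share called in either direction was thus below the 26.3 percent of all genes. The mean over the 37 was 0.04 to 0.07 in control-sh, -0.01 to 0.03 with shKdm5c#1 and -0.02 to 0.03 with shKdm5c#2. By this mean, control-sh lay above all knockdown cultures here too, as with the Hox genes. The 4 with the lowest p were all higher. Gbx2, of the midbrain-hindbrain border and a LIF target in these cells, Hhex, of endoderm, En2, of the midbrain, and Dlx2, of forebrain interneurons, read 0.99, 0.34, 0.32 and 0.26 (adjusted p = 1.17e-12, 1.61e-07, 2.82e-07 and 7.18e-06). All 4 were lower with shKdm5c#1 than in control-sh, with log2 differences of -0.58, -0.30, -0.30 and -0.38 (adjusted p = 8.28e-08, 5.32e-05, 3.56e-05 and 1.07e-05). Across the list, 5 were lower and 1 higher with shKdm5c#1, and 6 lower and 3 higher with shKdm5c#2, where 18.6 and 22.2 percent of all genes were called.

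Among chromatin regulators of the clusters, 7 of 22 Polycomb subunits were higher and 2 lower in control-sh than in IB10, with a list median of 0.02, where 12.6 percent of all genes were higher and 13.7 percent lower. Suz12, a core subunit of PRC2, read -0.27, and Bmi1 and Phc1, of PRC1, 0.30 and 0.22 (adjusted p = 3.09e-07, 4.39e-05 and 3.62e-05). Against control-sh, 5 were higher and 2 lower with shKdm5c#1, where all genes gave 8.99 and 9.62 percent, and 2 were higher and 7 lower with shKdm5c#2, where all genes gave 9.94 and 12.3 percent. The difference between those counts was not tested. Of 13 MLL and trithorax subunits, which oppose Polycomb at Hox genes, 4 were higher and 1 lower in control-sh than in IB10, 1 was higher and 0 lower with shKdm5c#1 than in control-sh, and 4 were higher and 2 lower with shKdm5c#2. In either direction 26.3, 18.6 and 22.2 percent of all genes were called in these 3 comparisons.

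**Figure D4:**
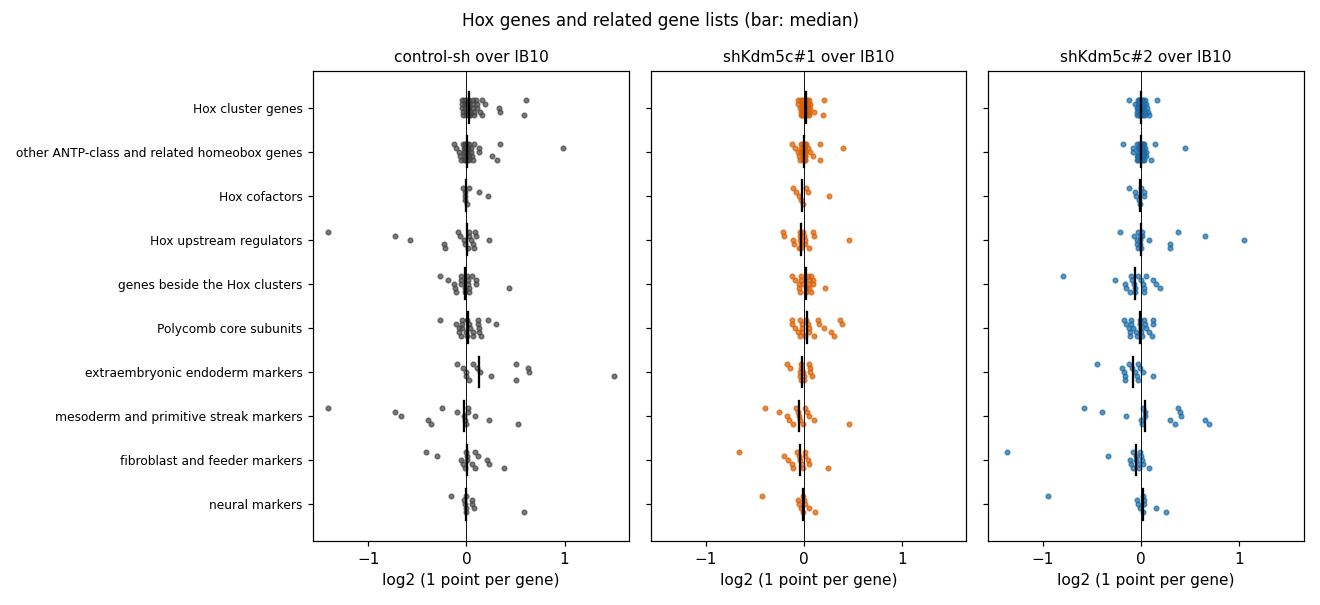
Log2 ratio over the IB10 reference of each gene (points) and median (bar) for Hox genes and 9 related lists, in 1 panel per line with a shared axis. Hox medians lie near 0 in each line, and extraembryonic endoderm markers are the list with the highest median in control-sh (0.13).

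Lists of markers of other cell types differed in whether they moved with the Hox pattern. Of 14 markers of extraembryonic endoderm, 9 were higher and 1 lower in control-sh than in IB10, with a median of 0.13, and 8 and 9 were lower with shKdm5c#1 and shKdm5c#2 than in control-sh, with 0 higher. The mean over the list was 0.27 to 0.32 in the control-sh cultures, -0.05 to 0.01 with shKdm5c#1 and -0.11 to -0.09 with shKdm5c#2, where the 36 Hox genes gave 0.07 to 0.11, 0.02 to 0.03 and -0.01 to 0.02. Both means set the control-sh cultures above all 8 others. This order was not particular to these 2 lists, as the means of the neural, fibroblast and other homeobox lists also gave it. Of the endoderm markers, Cubn, an endocytic receptor, Gata6, a transcription factor, and Dab2, an adaptor, read 1.51, 0.64 and 0.62 in control-sh (limma adjusted p = 3.12e-13, 2.44e-11 and 6.54e-11). Gata4, Afp, Ttr and Hnf4a of the same tissue were not called. Of the 14 markers, 10 were above background on all 12 sample channels and 0 on none. In such bulk RNA, more cells of a type and more RNA per cell cannot be told apart, and the part of these markers in the Hox result was not tested.

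Fibroblast and feeder markers gave a mean of 0.0042 to 0.05 in control-sh, -0.09 to -0.06 with shKdm5c#1 and -0.16 to -0.11 with shKdm5c#2, with 5 of 15 higher and 2 lower in control-sh than in IB10. Against control-sh, 5 were lower and 2 higher in each knockdown line, and the list medians were -0.08 and -0.06. Those higher were Thy1 (0.36 and 0.39) and Col5a1 (0.18 and 0.21), and the lowest was Col1a1. Col1a1, the fibrillar collagen chain, was lower with shKdm5c#1 and shKdm5c#2 than in control-sh, with log2 differences of -0.75 and -1.46 (adjusted p = 2e-10 and 5.56e-14). Of 15 mesoderm and primitive streak markers, 2 were higher and 6 lower in control-sh, with T, Wnt3 and Sp5 lowest (Sp5 -0.67, limma adjusted p = 5.56e-11). Against control-sh, 6 were higher and 2 lower in each knockdown line. Tcf15 was highest in control-sh, at 0.43 to 0.62, against -0.32 to -0.01 with shKdm5c#1 and -0.40 to 0.005 with shKdm5c#2. Kdr read 0.02 to 0.14, -0.45 to -0.32 and -0.65 to -0.44 in the same order. The mean over these 15 was lowest in control-sh, unlike the Hox mean. It was -0.22 to -0.17 in control-sh, -0.06 to -0.02 with shKdm5c#1 and 0.13 to 0.15 with shKdm5c#2. The list median did not share this order, at -0.03 in control-sh, -0.05 with shKdm5c#1 and 0.04 with shKdm5c#2. Of 10 neural markers, Pax6 was higher in control-sh than in IB10 (0.59, limma adjusted p = 2.7e-10) and Nes lower (-0.16, adjusted p = 7.91e-05). The mean over these 10 was 0.02 to 0.09 in control-sh, -0.11 to 0.01 with shKdm5c#1 and -0.09 to -0.01 with shKdm5c#2. Of the 10 stem cell markers, 3 were higher and 3 lower in control-sh than in IB10, with Klf4 at 0.49 (adjusted p = 2.7e-10). The part of these lists in the Hox result was not tested either.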

How the data were processed

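Members and gene lists were chosen with earlier results of these data known, and every value below comes from the deposited files. Per the file headers, the deposited raw files give spot and local background intensity per channel, unsubtracted and not normalized; the scanner is not given in the sources used here. The authors' normalized files hold intensity per dye, and their deposited table of values equals log2 of normalized Cy5 over Cy3, checked from the values; the method is not given in the sources used here, and the table served as an alternative.

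From the raw intensity, limma 3.58.1 under R 4.3.3 removed background with normexp and an offset of 50 and normalized each array by loess, with control spots at weight 0. Ratios were turned to sample over reference. The brightest probe stood for each of 18322 symbols, kept as the array spells them. The limma fit took all 12 arrays, with the lines and the dye of the sample as terms, 8 residual and 7.58 prior degrees of freedom, and p-values were adjusted by Benjamini-Hochberg per contrast. The fit was tested on simulated ratios. Arrays carry no read depth, and their number limits precision. Values by culture are given for members called in a difference between lines, and at most 4 genes per list and contrast are named, those with the lowest p, besides genes named for not being called. Culture letters were not used to pair samples in the main fit. Residuals of same-letter cultures correlated at -0.276 to 0.285 over 12 pairs, below 0 for letters A and C and above 0 for B and D. These values do not settle whether the letters pair cultures. Promoters came from RefSeq tables of GRCm38.p6, where Hoxb2, Hoxb3, Hoxb5, Hoxb7, Hoxb9, Hoxc9 and Hoxc13 were not among the entries used. Plots used Python 3.11.15 and matplotlib 3.10.9.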

Additional observations from a re-analysis of the deposited data

Results flagged for a closer look

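Hoxa5 read 0.44 in culture D of control-sh, apart from 0.28 to 0.31 in cultures A to C. This gap was the 1 unusual value among 33 groups of 4 cultures examined, where chance gives about 1 in 20. Without that culture Hoxa5 stayed called over IB10 in control-sh and lower in both knockdown lines.

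At 3 members the knockdown lines differed from each other, by the limma test of the difference itself. Hoxa10 was 0.20 log2 higher with shKdm5c#1 than with shKdm5c#2, Hoxc13 was 0.13 higher, and Hoxd12 differed by -0.11. All 3 were not called under median centring or in the Cy5 arrays alone, and Hoxc13 and Hoxd12 also without a dye term.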

How the results depend on the processing

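Among 339 recomputed values of single Hox genes in alternative settings, 275 kept their side of the threshold, as did 350 of 396 with 1 culture left out, and 0 reversed. With counts in the order control-sh, shKdm5c#1 and shKdm5c#2 over IB10, then shKdm5c#1 and shKdm5c#2 minus control-sh, then shKdm5c#1 minus shKdm5c#2, Hox genes called were 10, 3, 2, 6, 9 and 3. Median centring gave 5, 1, 0, 2, 3 and 0, while calls over all genes dropped from 4813, 4951, 4794, 3409, 4069 and 3398 to 985, 743, 1203, 419, 791 and 473; its Hox medians were 0.065, 0.0053, -0.017, -0.081, -0.0795 and 0.027, against 0.029, 0.019, 0.0001, -0.044, -0.033 and 0.0085. With it the share of higher among all calls went from 47.9 to 35 percent for control-sh over IB10, from 48.3 to 59.4 for shKdm5c#1 minus control-sh and from 54.2 to 71.7 for shKdm5c#1 minus shKdm5c#2. Hox counts of 0 under median centring were for shKdm5c#2 over IB10 and for the knockdown lines against each other. The Cy5 arrays alone gave 6, 1, 0, 2, 4 and 0 calls, with medians of 0.058 (control-sh over IB10), 0.013 (shKdm5c#2 over IB10), -0.047 (shKdm5c#2 minus control-sh) and -0.0036 (between knockdown lines). The Cy3 arrays alone gave 5 calls for shKdm5c#1 over IB10 and 5 for shKdm5c#2 minus control-sh, with medians of 0.0061 for shKdm5c#1 over IB10, -0.030 for shKdm5c#1 minus control-sh and 0.025 between knockdown lines. Without a dye term, 3 were called for shKdm5c#1 minus control-sh and 1 between knockdown lines. Leaving out the dimmest 25 percent of genes left 13 Hox genes, with 3, 1, 0, 2 and 1 calls where counts moved (all but shKdm5c#2 over IB10) and medians of 0.018, 0.0081, -0.028, -0.024 and 0.018; fewer Hox genes were then tested. For shKdm5c#2 over IB10, 7 were called without background correction, 7 in the authors' normalized table and 4 with an offset of 16. The mean over all probes gave 6 for shKdm5c#1 over IB10. Hox medians for control-sh over IB10 were 0.040, 0.046 and 0.055 without background correction, in the authors' table and with an offset of 16, and 0.039 for the mean over probes. For shKdm5c#2 minus control-sh they were -0.045 in the authors' table, -0.053 with an offset of 16 and -0.048 for the mean over probes. An offset of 16 also gave 0.027 for shKdm5c#1 over IB10 and -0.062 for shKdm5c#1 minus control-sh. Except for the filter on dim genes, the cause of these shifts was not tested.

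With 1 culture left out, calls for shKdm5c#1 minus control-sh ran from 3 (without culture B of shKdm5c#1) to 9, and those between knockdown lines from 1 (without culture A or C of shKdm5c#1 or A of shKdm5c#2) to 3. Hox medians then ran, in the same order of contrasts, from 0.029 to 0.036, from 0.015 to 0.027, from -0.0036 to 0.0069, from -0.052 to -0.037, from -0.052 to -0.019 and from 0.0050 to 0.023. The culture letter as a replicate block gave 13, 3, 3, 8, 10 and 3 calls, all within 1.5 times. A filter on spots above background on 4 or more arrays moved no count by that much. Slide or scan as a block was not run, because the file headers used here name neither. Signals near background limit what these arrays can show at Hox genes: a call of 0.15 log2 or less, as at Hoxb7, Hoxb5, Hoxc13 or Hoxd12, depended on single settings or cultures. Some larger differences from control-sh were also not called in every setting. These included Hoxa5 with shKdm5c#1 (-0.28) and Hoxb3, Hoxb9, Hoxa11 and Hoxd13 with shKdm5c#2 (-0.22, -0.22, -0.18 and -0.17).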
